A study of Mus musculus with 14 samples.

Results

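The oligoadenylate synthetase (OAS) family was followed across the 14 arrays of a study of p65, a subunit of NF-κB. Its members were taken as the non-control probes of the array whose gene name was *Oas1a*, *Oas1b*, *Oas1c*, *Oas1f*, *Oas1g*, *Oas2*, *Oas3*, *Oasl1* or *Oasl2*. This gave 11 probes for 9 genes, out of 41174 probes for 27962 gene names on the array. *Oas2* and *Oas3* had 2 probes each, and the brighter one on average stands for the gene.

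All cells were mouse embryonic fibroblasts that lack the *p65* gene, *p65*(-/-), and were refilled by lentiviral infection. They received wild type p65, the mutant K314/315R with arginine in place of both named lysines, the mutant KTR with 1 further lysine exchanged in the same way, or the empty vector pTV. The cells were selected with blasticidin and used as pools, so each genotype is 1 pooled line and not a clone. After a night of starvation each line received TNFα at 30 ng/ml and was harvested 3 h later, and the wild type line was in addition harvested without TNFα (0 h). There were 3 arrays for each of wild type 3 h, wild type 0 h, KTR 3 h and pTV 3 h, and 2 for K314/315R 3 h. Every line carries the *p65* deletion, and pTV is the line without any refilled p65. The replicates were RNA isolated on different days, so that p-values here measure the spread between preparations of 1 line and not between independently infected lines.

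OAS enzymes bind double-stranded RNA and then join ATP into short oligoadenylates. These act as second messengers of the antiviral response. The genes are well known targets of type I interferon: interferon activates transcription factors, STAT2 and IRF9 among them, that bind the interferon-stimulated response element (ISRE) in target promoters. NF-κB itself binds κB sites. *Oas1a* and *Oas1g* encode synthetases of the small form, *Oas2* and *Oas3* encode larger proteins with repeated synthetase units, and the OAS-like genes *Oasl1* and *Oasl2* add a ubiquitin-like tail. *Oasl1* has no synthetase activity. *Oas1b* is the flavivirus resistance gene, which is truncated in many laboratory strains and is listed as a transcribed pseudogene in RefSeq (GRCm38.p6).

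All 9 genes lie on chromosome 5. *Oasl2* and *Oasl1* are neighbours, with gene bodies at chr5:114896926-114912245 and chr5:114923143-114937911. The others form 1 cluster that begins with *Oas2* at chr5:120730333-120749886 and *Oas3* at chr5:120753098-120777684. It goes on with *Oas1c* (chr5:120800194-120812540), *Oas1b* (chr5:120812635-120824163), *Oas1f* (chr5:120847367-120857986) and *Oas1g* (chr5:120876142-120887613), and ends with *Oas1a* (chr5:120896256-120907544). The coordinates are from RefSeq on GRCm38.p6. The accession on the array was found in RefSeq's entry for 8 of the 9 genes, and that of the *Oas1b* probe was not, so *Oas1b* is named by the array's own annotation. Probe sequences were not used here, and cross-hybridisation between the close *Oas1* copies was not tested.

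The upstream sequences are shown because the genes are classic ISRE targets measured here in cells with and without an NF-κB subunit. Promoters of 7 members were given, from 250 bases before to 50 bases after the start, and those of *Oas1b* and *Oas2* were not used here. Letters were searched on both strands for an ISRE core, written as GAAA, any 2 bases and GAAA, and for a κB core, written as GGG, any 5 bases and CC. The ISRE core was found in 4 of the 7 members and in 3.44% of all 32851 promoters in the table. The κB core was found in 5 of the 7 and in 50.8% of all promoters, so its presence singles out little. Matches of 1 motif may overlap, as they do at the ISRE of *Oas1a*, *Oas1g* and *Oas1c*. Below are the 250 bases before the start used for the promoters of 6 members, 5′ to 3′ on the strand of the gene. Matches to either core are in capitals. Lines with *Oas1a*, *Oas1g*, *Oas1c* and *Oas3* hold an ISRE core, and those of *Oas1f* and *Oasl2* hold neither core.
Oas1a: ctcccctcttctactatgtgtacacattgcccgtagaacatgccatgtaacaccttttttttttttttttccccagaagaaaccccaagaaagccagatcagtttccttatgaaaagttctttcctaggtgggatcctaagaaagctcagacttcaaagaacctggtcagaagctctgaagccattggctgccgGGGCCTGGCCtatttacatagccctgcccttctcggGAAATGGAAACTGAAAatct
Oas1g: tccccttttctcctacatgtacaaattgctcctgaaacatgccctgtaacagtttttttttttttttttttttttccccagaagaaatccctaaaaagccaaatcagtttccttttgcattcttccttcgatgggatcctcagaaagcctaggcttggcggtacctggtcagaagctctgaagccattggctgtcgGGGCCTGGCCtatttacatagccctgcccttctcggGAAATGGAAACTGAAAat
Oas1c: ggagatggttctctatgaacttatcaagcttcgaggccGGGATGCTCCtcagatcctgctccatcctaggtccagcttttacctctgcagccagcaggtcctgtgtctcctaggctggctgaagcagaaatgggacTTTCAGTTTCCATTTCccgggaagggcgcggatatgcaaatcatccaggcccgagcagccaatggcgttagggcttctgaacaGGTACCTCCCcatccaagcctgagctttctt
Oas3: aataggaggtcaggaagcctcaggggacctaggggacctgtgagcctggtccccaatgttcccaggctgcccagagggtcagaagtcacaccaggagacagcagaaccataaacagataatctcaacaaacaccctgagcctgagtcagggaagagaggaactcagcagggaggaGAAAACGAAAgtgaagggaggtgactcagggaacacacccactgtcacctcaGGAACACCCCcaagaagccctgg
Oas1f: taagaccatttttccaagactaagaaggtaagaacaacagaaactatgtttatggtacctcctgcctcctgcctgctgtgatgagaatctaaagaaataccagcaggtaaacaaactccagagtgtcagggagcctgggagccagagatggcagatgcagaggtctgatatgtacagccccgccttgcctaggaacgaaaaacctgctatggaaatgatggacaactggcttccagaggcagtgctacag
Oasl2: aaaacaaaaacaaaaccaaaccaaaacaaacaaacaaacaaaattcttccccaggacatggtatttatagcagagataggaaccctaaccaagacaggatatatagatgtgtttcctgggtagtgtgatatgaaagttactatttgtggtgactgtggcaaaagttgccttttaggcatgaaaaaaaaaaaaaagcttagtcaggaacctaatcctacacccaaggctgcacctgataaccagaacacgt

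These stretches lie at chr5:120907526-120907775 (minus strand) for *Oas1a*, chr5:120887614-120887863 (minus) for *Oas1g*, chr5:120812515-120812764 (minus) for *Oas1c*, chr5:120777660-120777909 (minus) for *Oas3*, chr5:120847117-120847366 (plus) for *Oas1f* and chr5:114896684-114896933 (plus) for *Oasl2*. *Oas1a* and *Oas1g* share an unbroken run of 73 identical bases that contains both cores. Its ISRE, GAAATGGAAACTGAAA, holds 2 overlapping matches, which begin 20 and 14 bases before the start in *Oas1a* and 18 and 12 in *Oas1g*. The same letters stand on the opposite strand of *Oas1c*, inside a run of 19 bases shared with *Oas1a*. *Oas3* had 1 match 75 bases before its start. The starts are those of the promoter windows and not always the edges of the gene bodies given above. The stretches of *Oas1a*, *Oas1c*, *Oas3* and *Oasl2* run into their gene bodies, and most of the *Oas1a* ISRE lies inside its gene body. A match is a description of the letters, and no match says only that these letters are not in this window.

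A level below is the log2 of a probe's background-corrected intensity divided by the 75th percentile of its array, so that 0 is the 75th percentile. Levels are compared between groups for 1 probe at a time and not between genes. Testing was limited to the 22172 probes that exceeded background clearly on all arrays of 1 or more groups. Among the 11 family probes, those of *Oas1a*, *Oas1b*, *Oas1c*, *Oas1f* and *Oasl2* were tested, 1 each. Only *Oas1c* was well above background on all 14 arrays. *Oas1a* and *Oas1f* were so on 11 arrays, *Oasl2* on 13 and *Oas1b* on 7. *Oas1b* was so on all arrays of wild type 3 h alone, and it entered the test only through this group. The 6 probes that were not tested were those of *Oas1g*, *Oas2*, *Oas3* and *Oasl1*. A probe that enters only through the groups where it is bright is bound to differ, so that the count of members called among those tested is not evidence about the family as a whole.

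The arrays had 48.9% to 57.4% of probes well above background and a 75th percentile of intensity between 967 and 1442. The KTR arrays stood apart in part. They had 75, 212 and 326 spots flagged as outliers and left out, against 1 to 108 on the other arrays, and those of slides 2 and 3 had the lowest shares well above background (49.98% and 48.9%). The part of this in the KTR values was not tested beyond keeping the flagged spots, with which 0 of the 5 tested members were called in KTR over wild type as well. The groups wild type 3 h, wild type 0 h, KTR and pTV had 1 array on each of slides 1, 2 and 3, and the replicate number is the slide. Both K314/315R arrays were on slide 4 with no other array, so slide and line cannot be told apart for this mutant. The 10 fibroblast markers (collagens, *Vim*, *Pdgfra* and others) were all tested, and their summed linear level was 1069 to 1476 times the 75th percentile over all arrays. In wild type over pTV at 3 h, *Pdgfra* and *Pdgfrb* were called higher and *Thy1* lower. *Ptprc*, *Emr1*, *Itgam* and *Fcgr1* of myeloid cells and all 4 endothelial markers were well above background on 0 arrays. The 7 myeloid markers summed to 1.96 to 2.14 in wild type at 3 h and 2.23 to 3.15 in pTV, mostly *Cd14*, and the 5 lymphoid ones to 0.248 to 0.332 and 0.249 to 0.644. The 4 epithelial markers on the array summed to 0.308 to 0.382 in pTV and 0.171 to 0.208 in wild type at 3 h, with *Cdh1* and *Tacstd1* well above background on 0 arrays and *Krt18* called lower in wild type. In KTR and K314/315R the myeloid sums were 2.26 to 3.83 and 2.57 to 2.98. The epithelial sums were 0.216 to 0.248 and 0.233 to 0.260. These all lay above those of wild type at 3 h. The lymphoid sums were 0.251 to 0.474 in KTR, which overlapped wild type at 3 h, and 0.182 to 0.187 in K314/315R, which lay below. The part of these differences in the results was not tested. The 2 probes of *Rela*, the gene of p65, were well above background on all arrays, pTV included, and wild type over pTV was 0.35 and 0.61 on the log2 scale, under 2-fold at both. The sources used here do not say whether they lie in the deleted or the refilled part, so they do not check the labels.

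**Figure D1:**
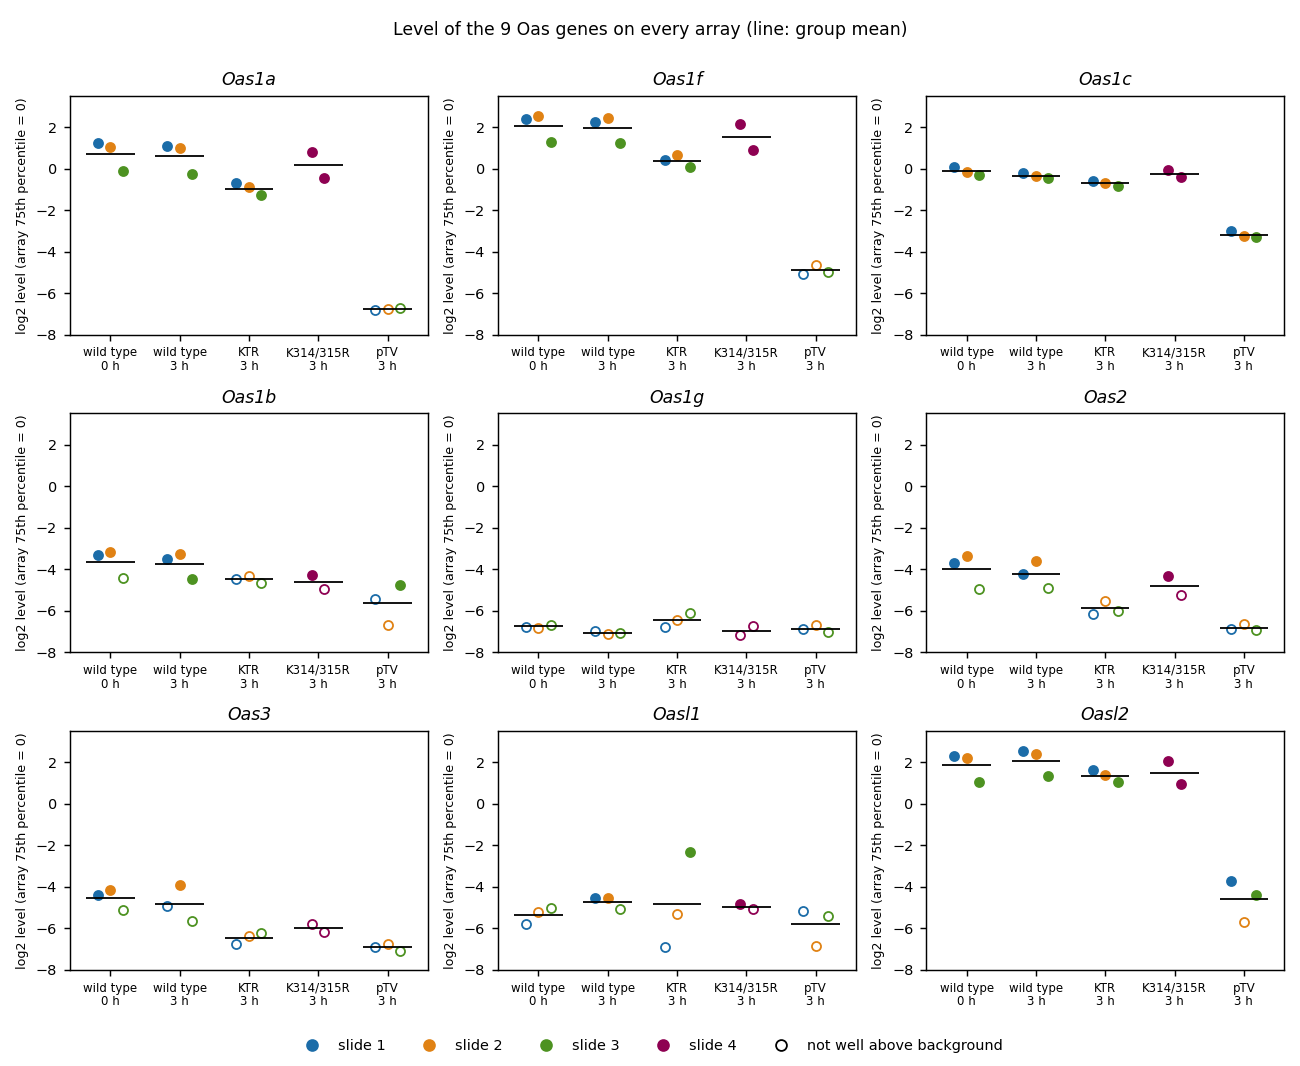
Each panel shows 1 gene on a common axis of log2 level (0 is the 75th percentile of the array), with 1 point per array coloured by slide, open where the probe was not well above background, and a line at the group mean. *Oas1a*, *Oas1f* and *Oasl2* were high in all p65-carrying groups and low in pTV, and *Oas1g* was at background everywhere. For *Oas1a*, *Oas1b*, *Oas1f*, *Oas2*, *Oas3* and *Oasl2* the slide 3 arrays of wild type lay below the other wild type arrays. For *Oas1g* and *Oasl1* the slide 3 array was instead the highest of wild type at 0 h.

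The comparison of wild type with pTV at 3 h asks which members depend on p65 in TNFα-treated cells. *Oas1a*, *Oas1f* and *Oasl2* were all higher in wild type by more than 6 on the log2 scale, and *Oas1c* was 7.12-fold higher. *Oas1b* was also called, with a smaller and less steady difference. In bulk RNA such as this, fewer cells that use a gene and less RNA per cell cannot be told apart.

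The synthetase gene *Oas1a* had levels of 1.07, 1.00 and −0.28 on the wild type arrays of slides 1, 2 and 3, and of −6.83, −6.77 and −6.71 on the pTV arrays. Wild type was high on all 3 slides, and no pTV array was well above background. The difference was 7.36 ± 0.43 (SE, n = 3 and 3, limma, adjusted p = 2.72e-07), which is at least 41.0-fold when the background of the pTV arrays is taken as the limit.

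*Oas1f* gave 2.24, 2.44 and 1.22 in wild type and −5.07, −4.66 and −4.96 in pTV. Here too the groups stood far apart and no pTV array rose above background. It was higher in wild type by 6.86 ± 0.40 (SE, adjusted p = 2.72e-07), which is at least 105.5-fold by the same limit. Its window held neither core.

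The OAS-like gene *Oasl2* stood at 2.51, 2.38 and 1.33 in wild type and at −3.70, −5.70 and −4.38 in pTV. On 2 of the 3 pTV arrays it still exceeded background clearly, and on that of slide 2 (−5.70) it did not. The difference was 6.67 ± 0.52 (SE, adjusted p = 2.64e-06), and 6.12 ± 0.47 (adjusted p = 9e-06) without the slide 2 array of pTV.

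*Oas1c* was the member measured on all arrays of both groups. Its levels were −0.23, −0.35 and −0.46 in wild type and −2.98, −3.25 and −3.31 in pTV. Arrays of 1 group lay close together, and the difference was 2.83 ± 0.14 (SE, adjusted p = 5.67e-08).

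*Oas1b* had −3.51, −3.25 and −4.46 in wild type and −5.42, −6.69 and −4.75 in pTV. The lowest wild type array, on slide 3, was only 0.29 above the pTV array of the same slide, which was itself well above background. The difference of 1.88 ± 0.48 (SE, adjusted p = 0.0192) was called, but no longer without wild type replicate 1 (adjusted p = 0.0747), wild type replicate 2 (0.0758) or pTV replicate 2 (0.0725), nor in a fit on these 2 groups alone (0.0694).

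Thus 5 of 5 tested member probes were called higher, where 3.59% of all tested probes were. *Oas1b* entered the test only through wild type 3 h, and *Oas1a* and *Oas1f* were at background on all pTV arrays. The filter thus favours such calls, and the count is not evidence about the family as a whole. All wild type arrays were above all pTV arrays for the 5 tested members, as for 16.2% of all probes with a value on each of the arrays. The differences shrank but stayed called under normexp background correction for *Oas1a* (3.48), *Oas1f* (4.34), *Oasl2* (4.16) and *Oas1c* (1.79), while *Oas1b* had 0.56 and was not called. Without slide 3, the 5 differences were between 2.67 and 7.83 and all were called.

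**Figure D2:**
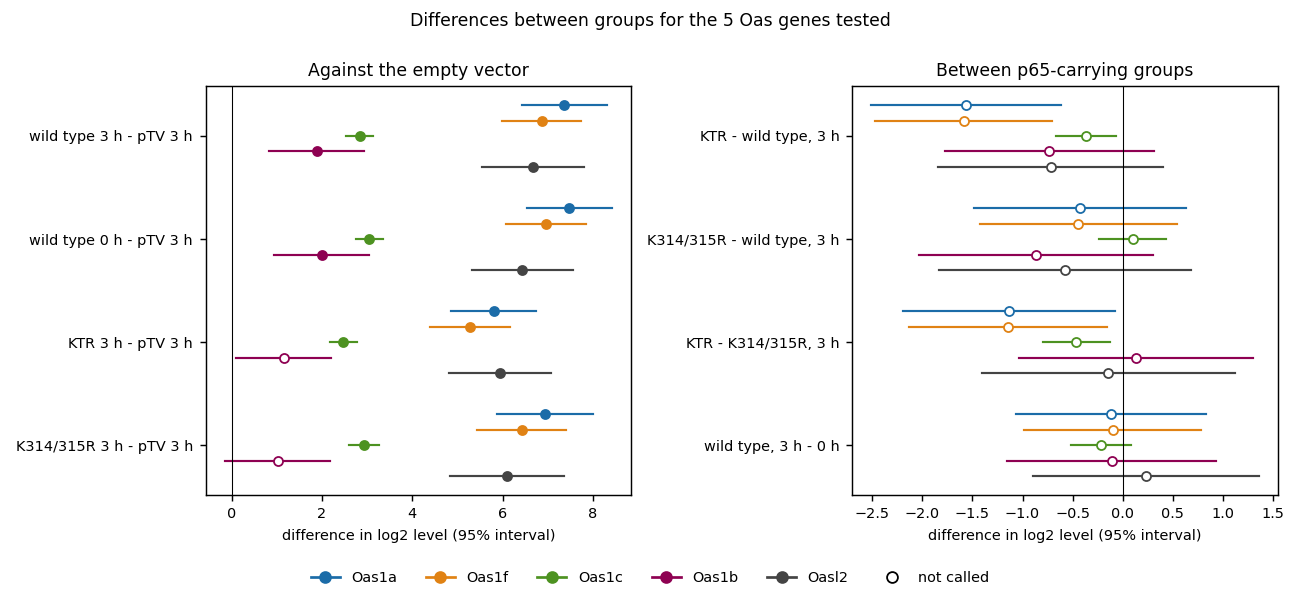
Points are differences in log2 level for the 5 genes tested, with their 95% intervals from limma, filled where called (adjusted p under 0.05 and over 2-fold for wild type 3 h over pTV, over 1.8-fold elsewhere). Against pTV (left) the points for *Oas1a*, *Oas1f* and *Oasl2* lie between 5.28 and 7.48, and between p65-carrying groups (right) all points are open.

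Members that were not tested add the following. *Oas2*, at its brighter probe, had −4.22, −3.58 and −4.91 in wild type at 3 h and −6.85, −6.64 and −6.92 in pTV. The wild type arrays of slides 1 and 2 were well above background and none of pTV was, which gives at least 1.44-fold. *Oas3* had −4.93, −3.94 and −5.65 in wild type and −6.88, −6.74 and −7.08 in pTV. Only the array of slide 2 was well above background, and no bound over 1 could be given. *Oasl1* had −4.56, −4.53 and −5.05 against −5.15, −6.87 and −5.42, which is at least 1.03-fold for the group means alone, and these groups too did not overlap. *Oas1g* stayed between −7.16 and −6.09 over all 14 arrays and was above background on 0 of them, although its upstream window shares its ISRE letters with *Oas1a*. The second probes of *Oas2* (−7.01 to −5.37) and *Oas3* (−6.98 to −4.63) were also well above background on 0 arrays. When no filter was set, limma gave *Oas2* 2.57 (adjusted p = 0.00343) and *Oas3* 2.06 (adjusted p = 0.00649) for wild type over pTV, and *Oasl1* an adjusted p of 0.611. These values rest on signals near or below the detection limit.

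The levels of untreated wild type cells show whether the difference from pTV needed TNFα. They share the pTV arrays with the comparison above, so both are given side by side. *Oas1a* stood at 1.22, 1.06 and −0.14 at 0 h, *Oas1f* at 2.38, 2.54 and 1.29, and *Oasl2* at 2.30, 2.21 and 1.03. Levels before and after TNFα lay within 0.30 of each other on each slide. Over pTV at 3 h the 0 h arrays differed by 7.48 for *Oas1a* (at least 44.4-fold), 6.97 for *Oas1f* (at least 113.2-fold), 6.44 for *Oasl2* (5.89 without the pTV array of slide 2), 3.05 for *Oas1c* and 1.99 for *Oas1b*. All 5 were called (adjusted p = 3.65e-07, 3.65e-07, 3.86e-06, 5.64e-08 and 0.0101), where 4.74% of tested probes were called higher. Under normexp background correction they came to 3.76, 4.68, 4.22 and 1.94 and stayed called for the first 4, while *Oas1b* had −0.07 (adjusted p = 0.966) and was not called. *Oas2* had −3.69, −3.36 and −4.97 at 0 h, at least 1.69-fold over pTV, and *Oas3* had −4.37, −4.15 and −5.12, at least 1.16-fold, each well above background on 2 of the 3 arrays. The pTV cells had TNFα and these wild type cells had not, so time and treatment differ here as well as p65, and pTV cells at 0 h were not analysed here.

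After 3 h of TNFα in wild type cells the mean of each tested member differed from 0 h by 0.23 or less. *Oas1a* at 3 h minus 0 h was −0.15, −0.05 and −0.14 on slides 1 to 3, with a mean of −0.12 ± 0.43 (SE, adjusted p = 0.941). The differences were −0.10 ± 0.40 for *Oas1f* (adjusted p = 0.945), −0.22 ± 0.14 for *Oas1c* (adjusted p = 0.481) and −0.11 ± 0.48 for *Oas1b* (adjusted p = 0.949). *Oasl2* was the 1 member above its 0 h level on each slide, by 0.21, 0.17 and 0.30, with a mean of 0.23 ± 0.52 (SE, adjusted p = 0.895). The 95% intervals of the difference ran from −1.06 to 0.83 for *Oas1a*, −0.98 to 0.78 for *Oas1f* and −0.90 to 1.36 for *Oasl2* in the fit without pairing. For *Oas1c*, with its small spread, the interval was −0.52 to 0.08. *Oas1c* was lower at 3 h on each slide, with differences of −0.32, −0.17 and −0.16, and with the slide number as a block it had −0.22 ± 0.07 (SE, adjusted p = 0.0739) and was not called. Limma called 0 of the 5 in either direction, where 1.12% of all tested probes were called higher and 0.424% lower. On the unadjusted p it was also 0, where 1.4% were called higher and 0.672% lower. *Oasl1*, which was not tested, was above background on 2 wild type arrays at 3 h and on 0 at 0 h. Its levels were −5.81, −5.22 and −5.02 at 0 h, which overlapped those at 3 h.

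Next, the mutants were set against wild type at 3 h to ask whether exchange of the lysines changed these genes. In KTR, all 5 tested members had lower means than wild type, and *Oas1a* and *Oas1f* stood about 3-fold lower, but 0 of the 5 were called, where 0.14% of tested probes were called lower and 0.0271% higher. *Oas1a* had −0.71, −0.89 and −1.29 in KTR, below each of the wild type arrays. The difference was −1.56 ± 0.43 (SE, adjusted p = 0.23 in limma), with a 95% interval of −2.51 to −0.62. *Oas1f* had 0.42, 0.67 and 0.06 in KTR, also below each wild type array. It differed by −1.59 ± 0.40 (SE, adjusted p = 0.182 in limma), with an interval of −2.47 to −0.70. *Oas1c* had −0.61, −0.70 and −0.84, again with no overlap, and its difference of −0.37 ± 0.14 (SE, adjusted p = 0.415) was small.

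*Oasl2* gave 1.60, 1.40 and 1.07 in KTR and overlapped wild type through the slide 3 array, with a difference of −0.72 ± 0.52 (SE, adjusted p = 0.732). *Oas1b* gave −4.46, −4.30 and −4.66, on no KTR array well above background, with −0.73 ± 0.48 (SE, adjusted p = 0.703), at least 1.41-fold lower by the limit of the KTR arrays and not called. For 3 of the 5 members every KTR array was below every wild type array, where 5.06% of all probes with values on all these arrays were so ordered.

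Slides 1 to 3 pair these arrays, and the differences within a slide were negative for all 5 tested members on all 3 slides, for which no share of all probes is given here. For *Oas1a* they were −1.78, −1.89 and −1.01, and for *Oas1f* −1.82, −1.78 and −1.16. Those of *Oas1c* were nearly equal, at −0.38, −0.35 and −0.37. *Oasl2* had −0.91, −0.99 and −0.26 and *Oas1b* −0.95, −1.05 and −0.20, each smallest on slide 3, where the wild type array itself was lowest.

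With the slide number as a block in limma, the adjusted p was 0.0578 for *Oas1a*, 0.0513 for *Oas1f* and 0.0389 for *Oas1c*, of which the last is only 1.29-fold. Thus 0 members were called with the block as well, while the probes called lower among all tested went from 31 to 62 (from 0.14% to 0.28%) and those called higher from 6 to 29 (to 0.131%). With slide as a random block, *Oas1f* was called (adjusted p = 0.0338). On the unadjusted p, *Oas1a* and *Oas1f* were called lower, where 0.812% of tested probes were. Without wild type replicate 3 the differences widened to −2.00 for *Oas1a* (adjusted p = 0.133) and −1.96 for *Oas1f* (adjusted p = 0.131), and without slide 3 they were −1.84 and −1.80.

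**Figure D3:**
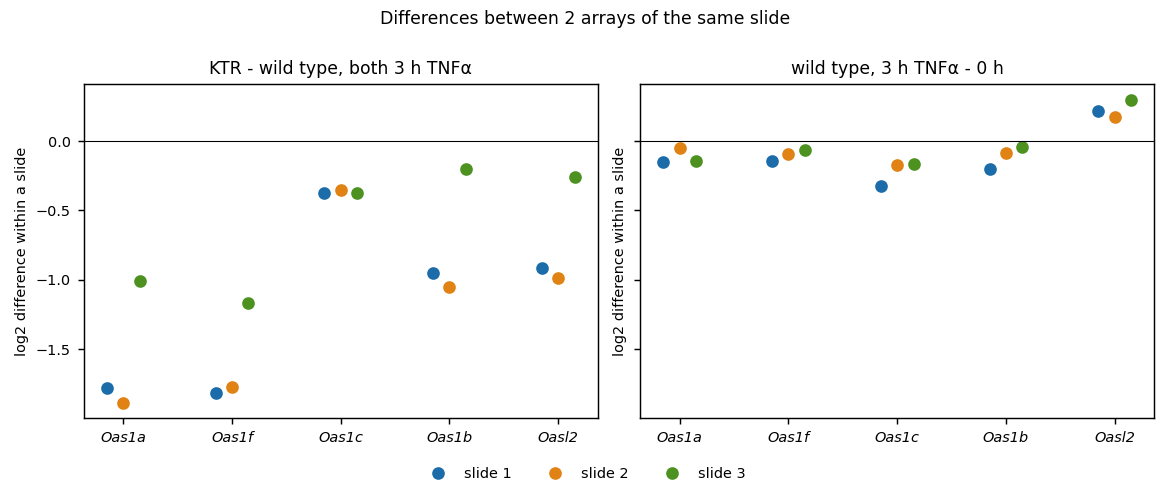
Each point is the difference in log2 level between 2 arrays of the same slide for 1 of the 5 genes tested, KTR minus wild type on the left and wild type at 3 h minus 0 h on the right, coloured by slide. All KTR points lie below 0, between −1.89 and −0.20, and the TNFα points lie between −0.32 and 0.30.

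Among the untested members, *Oas2* and *Oas3*, each at its brighter probe, had lower levels on each KTR array than on any wild type array. *Oas2* stood at −6.14, −5.51 and −5.99 in KTR, above background on 0 arrays, which makes it at least 1.03-fold lower than wild type. *Oas3* stood at −6.75, −6.38 and −6.20, on 0 arrays above background, with no bound over 1. The second probes, well above background on 0 arrays, did not follow. That of *Oas2* was higher on each KTR array than on any wild type array, with a mean difference of 0.86. That of *Oas3* overlapped, with a mean difference of 0.25. Without a filter on dim probes, limma gave −1.64 and −1.60 for the brighter probes of *Oas2* and *Oas3*, with the same adjusted p of 0.0299. It also gave 0.63 for *Oas1g* (adjusted p = 0.0299), a probe at background in all groups. This is under 1.8-fold and was not called. The second *Oas2* probe, at 1.81-fold, was the 1 member probe called higher. In that fit 1252 probes were called higher in KTR against 6 with the filter, and the lowest level among probes well above background was higher on the KTR arrays of slides 2 and 3 (−4.25 and −4.00) than on any other array (−5.20 to −4.54 outside KTR). The part of this in the values of dim probes was not tested. *Oasl1* was uneven in KTR, at −6.91, −5.32 and −2.32, with only the slide 3 array above background.

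In K314/315R, 4 of the 5 tested members had lower means than wild type and 1 a higher mean, where 47% of all tested probes had lower and 53% higher means. *Oas1a* had 0.81 and −0.46 on its 2 arrays, *Oas1f* 2.14 and 0.91, and *Oasl2* 2.03 and 0.96. In each case the first array was within the range of wild type and the second was below the lowest wild type array. The mean differences from wild type were −0.43 ± 0.48 for *Oas1a* (SE, adjusted p = 0.709), −0.44 ± 0.45 for *Oas1f* (adjusted p = 0.67) and −0.58 ± 0.58 for *Oasl2* (adjusted p = 0.664). *Oas1c*, at −0.08 and −0.42, differed by 0.10 ± 0.15 (SE, adjusted p = 0.798), and *Oas1b*, at −4.28 and −4.93, by −0.86 ± 0.53 (SE, adjusted p = 0.445). Limma called 0 of the 5 in either direction, where 0.167% of tested probes were called higher and 1.03% lower, and 0 on the unadjusted p, where 0.383% were called higher and 3.06% lower. The sign for *Oas1a* and *Oas1f* depended on 1 array: without K314/315R replicate 2 they were 0.21 and 0.17 above wild type. *Oas2* had −4.35 and −5.22 and *Oas3* −5.77 and −6.19, where *Oas3* was well above background on 1 wild type array and on 0 of K314/315R.

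A direct test asked whether KTR and K314/315R differ from each other. KTR was lower by 1.14 at *Oas1a* (−1.14 ± 0.48, SE, adjusted p = 0.2 in limma) and by the same amount at *Oas1f* (−1.14 ± 0.45, adjusted p = 0.168). *Oas1c* differed by −0.47 ± 0.15 (SE, adjusted p = 0.101). At these 3 genes all KTR arrays lay below both K314/315R arrays, where 12.2% of all probes did. For *Oasl2* and *Oas1b* the differences were −0.14 ± 0.58 and 0.13 ± 0.53 (adjusted p = 0.921 for both). Thus 0 of 5 were called after adjustment, where 2.06% of tested probes were called higher and 0.492% lower, and 2 were called lower on the unadjusted p, where 1.06% were. The 95% intervals, −2.19 to −0.08 for *Oas1a* and −1.40 to 1.11 for *Oasl2*, are wide, and slide 4 holds only the one line.

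Both mutants remained far above the empty vector. Over pTV, KTR was higher by 5.80 at *Oas1a* (at least 13.9-fold), 5.28 at *Oas1f* (at least 35.1-fold), 5.95 at *Oasl2* (5.40 without the pTV array of slide 2) and 2.46 at *Oas1c*, all called (adjusted p = 2.9e-06, 3.5e-06, 9.12e-06 and 2.28e-07). Under normexp background correction the KTR differences were 2.28 at *Oas1a* (adjusted p = 0.108) and 1.47 at *Oas1c* (adjusted p = 0.05), which were then not called, while *Oas1f* (3.07) and *Oasl2* (3.74) still were. K314/315R was higher by 6.94 (at least 30.5-fold), 6.42 (at least 77.6-fold), 6.09 and 2.93 in the same order (adjusted p = 1.68e-06, 1.76e-06, 1.81e-05 and 1.43e-07). The lowest K314/315R differences over all alternative settings were 3.23 at *Oas1a*, 4.17 at *Oas1f*, 3.87 at *Oasl2* and 1.81 at *Oas1c*. The highest at *Oas1a* was 7.58. *Oas1b* was not called in either, with 1.15 in KTR (adjusted p = 0.139) and 1.01 in K314/315R (adjusted p = 0.187). Thus 4 of 5 members were called higher in each line, where 4.06% of tested probes were called in KTR and 5.1% in K314/315R. Without slide 3, *Oas1b* was called too, at 1.67 (adjusted p = 0.038) and 1.45 (adjusted p = 0.033). On slides 1 and 2 it was well above background on no KTR and no pTV array. The KTR value thus compares signals at background and is not a measured difference.

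Ordered by their means, the groups at *Oas1a* were wild type 0 h (0.71 ± 0.74), wild type 3 h (0.60 ± 0.76), K314/315R (0.17 ± 0.90), KTR (−0.96 ± 0.29) and pTV (−6.77 ± 0.06), as mean ± SD. The first 3 overlapped, KTR lay below all of them without passing the adjusted test, and pTV stood apart. *Oas1f* had this order too, from 2.07 ± 0.68 over 1.97 ± 0.65, 1.53 ± 0.87 and 0.38 ± 0.31 to −4.90 ± 0.21. At *Oasl2* the order was wild type 3 h, wild type 0 h, K314/315R, KTR and pTV, where the first 4 overlapped. *Oas1c* placed K314/315R before wild type 3 h, and *Oas1b* placed KTR before K314/315R, in both cases with overlapping arrays.

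The spread within wild type was itself shared by several members. On slide 3 both wild type arrays were below the mean of slides 1 and 2, by 2.49-fold at 3 h and 2.42-fold at 0 h for *Oas1a*, 2.17-fold and 2.25-fold for *Oas1f*, 2.18-fold and 2.34-fold for *Oasl2*, and 2.11-fold and 2.26-fold for *Oas1b*. *Oas1c* was lower there by only 1.13-fold and 1.19-fold. KTR on slide 3 was lower by 1.40-fold at both *Oas1a* and *Oas1f*. Over all tested probes the median shift of slide 3 was between 0.02 and 0.08 on the log2 scale in these 4 groups. The 2 K314/315R arrays also differed from each other, by 2.42-fold for *Oas1a*, 2.34-fold for *Oas1f* and 2.10-fold for *Oasl2*, with replicate 1 higher. The labels name no condition that separates these arrays.

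Across the 14 arrays the members moved together. *Oas1a* and *Oas1f* had a Pearson r of 0.999, *Oas1c* and *Oasl2* had r of 0.972 to 0.990 with each other and with these 2, and *Oas1b* had 0.754 to 0.824 with the other 4. These correlations share the arrays and are carried in large part by the gap between pTV and the rest, so they are given as a description. Among the 10 genes most like the mean of the 5 tested members were *Bst2* (r = 0.998), *2310016F22Rik*, *BC020489*, *Isg15*, *Lgals3bp*, *Mx2*, *Ifi27*, *Phf11* and *Zbp1* (r = 0.993). *Bst2* encodes tetherin, which holds budding virus at the cell surface, *Isg15* a ubiquitin-like protein and *Mx2* a dynamin-like GTPase. In wild type over pTV these 9 were higher by 3.03 (*Lgals3bp*) to 6.59 (*Zbp1*) on the log2 scale. KTR over wild type was between −1.47 (*Phf11*) and −0.77 (*Lgals3bp*) for them. They were chosen for a likeness that the gap to pTV dominates, so these directions follow from the choice.

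**Figure D4:**
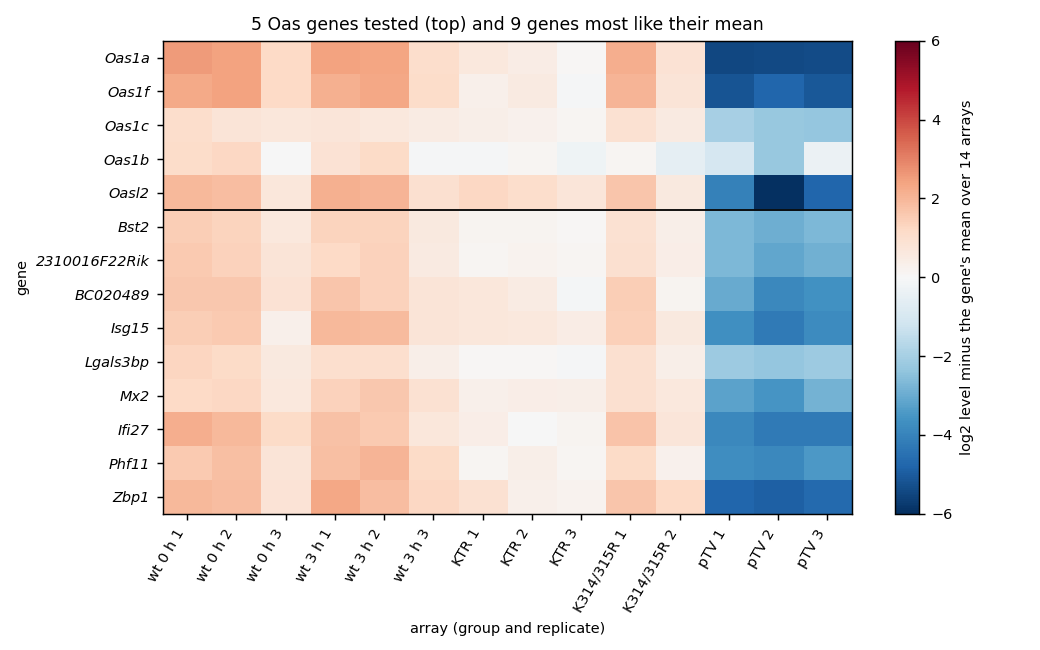
Colours show the log2 level minus the gene's own mean over the 14 arrays (columns, by group and replicate) for the 5 OAS genes tested (above the line) and 9 of the genes with the highest Pearson r to their mean (below). All rows except that of *Oas1b* are lowest on the 3 pTV arrays, and in all rows replicate 3 is the lowest wild type array at both 0 h and 3 h.

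The genes that act around the synthetases were read from a list of 8, of which 6 were on the array and tested. In wild type over pTV, 3 of the 6 were called higher and 0 lower, where 3.59% of all tested probes were called higher and 1.46% lower, with a list median of 1.17 against −0.03 for all tested probes. *Ifih1* and *Ddx58*, both sensors of viral RNA, were higher by 2.69 (adjusted p = 6.15e-06) and 2.21 (adjusted p = 4.15e-05). *Eif2ak2*, the kinase PKR, was higher by 1.40 (adjusted p = 0.00508). *Abce1*, an ATP-binding protein that also acts in ribosome recycling, had −0.18 (adjusted p = 0.388). In KTR over wild type, K314/315R over wild type and TNFα over 0 h, 0 of the 6 were called, with medians of −0.13, −0.19 and 0.16 in turn, against 0.06, 0.02 and −0.04 for all tested probes. Of all tested probes, 0.0271%, 0.167% and 1.12% were called higher in these 3 comparisons and 0.14%, 1.03% and 0.424% lower.

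The genes from interferon to the ISRE were read from a list of 17 symbols (1 gene under both its names), of which 15 were on the array and 11 were tested. In wild type over pTV, 7 of the 11 were called higher and 0 lower, where 3.59% of all tested probes were called higher and 1.46% lower, with a median of 1.105 against −0.03. The transcription factor gene *Stat2* was higher by 1.88 (adjusted p = 1.7e-06), and *Irf7* by 3.20 (adjusted p = 0.00158). *Usp18*, a brake on the interferon receptor, was higher by 5.92 (adjusted p = 7.65e-06). The ligand genes themselves were dim: *Ifnb1*, *Ifna2* and *Ifna4* were well above background on 0 arrays and *Ifna1* on 4, so that none was tested. In KTR over wild type and in K314/315R over wild type 0 of the 11 were called, where 0.14% and 1.03% of all tested probes were called lower and 0.0271% and 0.167% higher, with medians of −0.13 and −0.03 against 0.06 and 0.02. With TNFα 1 of the 11 was called higher, *Irf1*, by 0.87 (adjusted p = 0.000915), where 1.12% of all tested probes were, while the tested OAS members differed by 0.23 or less.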

How the data were processed

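RNA of 14 cultures was hybridised to 1-colour Agilent arrays. The deposited scanner files hold, per spot, the background-corrected intensity that the authors obtained with Agilent Feature Extraction 9.1 per the labels (per the file headers, 9.1.3.1 for slide 4 and 9.1.1.1 for the others). Spots of a probe were averaged without outlier flags and control spots were left out. The log2 of the mean minus that of the 75th percentile of the array gave the level. The deposited matrix of values held the same intensity values times a constant for each array (0.837 to 1.20, within 1% at 99.67% to 99.81% of the probes) and served as an alternative.

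Probes flagged as well above background on all arrays of any group were fitted with limma 3.58.1 (in R 4.3.3, with version 1.17.8 of data.table) on all 14 arrays with group means. The 2-sided p was adjusted by Benjamini-Hochberg over these probes. Calls needed an adjusted p under 0.05 and a difference over 2-fold for wild type 3 h against pTV or over 1.8-fold elsewhere. "At least N-fold" sets the mean of the bright group against, per array of the dim group, the higher of the lowest level among probes well above background and the probe's own level. It concerns the group means and takes no account of the spread between arrays. The number of arrays limits the precision.

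Same-numbered arrays of slides 1 to 3 deviated from their group means together (18 pairs, r = 0.308 to 0.624, other pairs −0.516 to 0.113), so the number pairs them. The members, the lists of pathway genes and of cell type markers, and the tests were chosen with earlier results of these data known. The text names all members, gives values for at most 6 genes of each list, and names 9 of the 10 genes most like the mean of the tested members. A few genes are not reported here and were left out of the list counts. Alternatives were normexp background correction (offset 50), quantile normalization, other filters, outlier spots kept, probes of a gene averaged, a fit on the groups compared, the replicate block, slide as a random block, the unadjusted p and leaving out each array. Leaving out slide 3 was added after seeing the data. The fit was tested on simulated data. Promoters are from RefSeq (GRCm38.p6).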

Additional observations from a re-analysis of the deposited data

How the results depend on the processing

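Of the 5 tested members, those called numbered 4 to 5 for wild type 3 h over pTV when each array was left out in turn, 5 to 5 for wild type 0 h over pTV, 4 to 4 for KTR and for K314/315R over pTV, and 0 to 0 in the other comparisons. When a probe had to exceed background on all 14 arrays, *Oas1c* alone was tested and the number called over pTV was 1 for wild type 3 h, KTR, K314/315R and wild type 0 h. Normexp left 2 for KTR over pTV, where 326 of 22170 tested probes were called higher, against 901 in the main fit. For KTR over wild type the number was 5 of 11 probes without a filter (4 lower and 1 higher). The 1 higher was the second *Oas2* probe, and the brighter *Oas2* probe was among the 4 lower. The number was 1 with slide as a random block and 2 on the unadjusted p, and for KTR over K314/315R it was 2 on the unadjusted p. With the replicate block it was 0 for KTR over wild type. The block, which pairs slides 1 to 3, changed no other count of members called. For K314/315R the block rests on numbers that were not shown to pair the arrays.

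Signs turned in these cases, of which 1, *Oas1b* at 0 h over pTV, had been called. Under normexp *Oas1b* had 0.63 and *Oasl2* −0.057 for TNFα over 0 h, and *Oas1b* had −0.28 for KTR over pTV, −0.13 for K314/315R over pTV, −0.16 for KTR over K314/315R and −0.0693 for wild type 0 h over pTV. For TNFα over 0 h, *Oas1a*, *Oas1b* and *Oas1f* had 0.32, 0.25 and 0.27 when replicate 3 of 3 h was left out, 0.14, 0.047 and 0.056 when replicate 1 of 0 h was, and 0.057, 0.12 and 0.13 when replicate 2 of 0 h was. Their lowest values, −0.54, −0.50 and −0.49, came without replicate 3 of 0 h, and *Oasl2* then had −0.18, against 0.60 at most without replicate 3 of 3 h. For K314/315R over wild type, *Oas1c* had −0.0719 without K314/315R replicate 1 (0.27 at most), and *Oas1a* and *Oas1f* had 0.21 and 0.17 without replicate 2, against −1.06 for both without replicate 1. For KTR over K314/315R, *Oas1b* had −0.21 with quantile normalization and −0.20 without K314/315R replicate 2 (0.46 without its replicate 1), and *Oasl2* had 0.0613 with the replicate block and 0.39 without K314/315R replicate 1 (−0.68 without its replicate 2). The cause was not tested.

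Over all tested probes, the number called higher and lower was 795 and 323 for wild type 3 h over pTV and 260 and 66 under normexp. For KTR over wild type it was 6 and 31, and 0 and 1 under normexp, 1252 and 150 without a filter, 29 and 62 with the replicate block, 32 and 75 with slide as a random block, and 2 and 8 with the 2 groups alone. For K314/315R over wild type it was 37 and 228, and 0 and 0 under normexp, 12 and 48 without a filter, 48 and 66 with quantile normalization, 73 and 519 with the block, 15 and 69 with slide as a random block, and 3 and 6 with the 2 groups alone. Leaving out 1 array moved these counts as well. For KTR over wild type they were 24 and 96 without KTR replicate 1. For K314/315R over wild type they were 4 and 25 without wild type replicate 2.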

Other observations

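Genes of the family outside the 9 members were also on the array. *Oas1e* had a mean level of −3.09 ± 0.45 (SD, n = 3) in wild type at 0 h, −3.81 ± 0.15 at 3 h, −4.00 ± 0.42 in KTR, −3.88 ± 0.18 (n = 2) in K314/315R and −5.48 ± 0.59 in pTV, where it was well above background on 0 arrays. It was called higher over pTV in wild type at 3 h (1.67, limma adjusted p = 0.00237) and at 0 h (2.39, adjusted p = 0.000148). The same held for KTR (1.48, adjusted p = 0.00558) and K314/315R (1.59, adjusted p = 0.00482). Of all tested probes 3.59%, 4.74%, 4.06% and 5.1% were called higher in these comparisons, in this order. With TNFα *Oas1e* differed by −0.72 ± 0.30 (SE, adjusted p = 0.246) and was not called. *Oas1d* and *Oas1h* were well above background on 0 arrays.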
